A study of Mus musculus with 4 samples.

Results

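Gremlin 1 (Grem1) and 9 genes of the bone morphogenetic protein (BMP) pathway were followed in brain endothelial cells of mice with and without Tie2-Cre deletion of Pd1, the gene of the immune receptor PD-1. The 10 genes were chosen by name, as the rows of the deposited count tables that carry the symbols Grem1, Bmp4, Bmp6, Acvrl1, Eng, Bmpr2, Smad6, Smad7, Id1 and Id3, and all 10 were found among the 21578 genes of the tables. The cells came from C57BL/6 mice at postnatal day 0. Pd1fl/fl mice carry loxP-flanked Pd1 alleles, and Pd1cKO-Tie2 mice carry the same alleles with Cre driven by the Tie2 promoter, which is active in endothelial cells and also in blood-forming cells and their myeloid progeny. There were 2 libraries per genotype, of cells purified from brain with antibodies to CD31 and CD45. The study's methods describe plating of sorted cells, and whether the sequenced cells were plated is not given in the sources used here. Nor is it given how many animals stand behind a library, so the p-values measure only the spread between these libraries.

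BMPs are secreted ligands that bind complexes of type I and type II serine/threonine kinase receptors. In endothelial cells the type II receptor BMPR2 activates the type I receptor ALK1 (Acvrl1), helped by the co-receptor endoglin (Eng), and ALK1 phosphorylates Smad1, Smad5 and Smad9, which switch on targets such as Id1 and Id3 and the inhibitory Smad6 and Smad7. Gremlin 1 is a secreted antagonist that binds BMPs and keeps them from their receptors. Mutations of ACVRL1 and ENG cause hereditary haemorrhagic telangiectasia, and the pathway is known for its part in vessel growth and quiescence.

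The Grem1 gene (ENSMUSG00000074934) spans chr2:113746164-113758646 of GRCm38, is read from the reverse strand, and shares no exon base with another annotated gene. The study used a primer pair for this gene, shown here because it marks where a Grem1 transcript can be measured apart from these libraries. Both primers lie wholly in the coding part of exon 2 of the 2 exons of the GENCODE transcript, the forward primer at chr2:113749867-113749887 and the reverse primer at chr2:113749804-113749824. They bound a product of 84 bases, and the transcripts of 1 gene, Grem1, hold an exact match to each. Since both lie in the same exon, the product from genomic DNA has the same length as that from the transcript.
Grem1 forward primer: aagcgagattggtgcaaaact
Grem1 reverse primer: gaagcggttgatgatagtgcg

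Sequence upstream of a start site was given by RefSeq (GRCm38.p6) for 7 of the 10 genes. Upstream windows are shown for Grem1, the 1 member that met the criterion of change given below. They are also shown for Eng, the member of highest level among those higher in both Pd1cKO-Tie2 libraries. Each covers the 250 bases before the start site, 5′ to 3′ on the gene's strand. Capitals mark the letters GGCGCC, a palindrome known as a binding sequence of Smad1 and Smad5. It reads the same on both strands, and 9.7% of 32536 upstream windows of this length hold it.
Grem1, chr2:113758649-113758898, reverse strand: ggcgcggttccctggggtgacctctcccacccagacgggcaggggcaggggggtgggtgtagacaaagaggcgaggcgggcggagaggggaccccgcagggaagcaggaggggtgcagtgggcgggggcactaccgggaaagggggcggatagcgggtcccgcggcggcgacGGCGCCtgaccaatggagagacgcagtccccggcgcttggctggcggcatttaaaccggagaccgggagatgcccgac
Eng, chr2:32646345-32646594, forward strand: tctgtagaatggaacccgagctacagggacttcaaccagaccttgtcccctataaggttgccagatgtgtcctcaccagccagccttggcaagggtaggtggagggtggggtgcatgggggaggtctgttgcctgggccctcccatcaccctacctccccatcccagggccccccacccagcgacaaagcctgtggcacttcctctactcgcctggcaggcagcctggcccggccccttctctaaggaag
The windows of Grem1 and Bmpr2 hold 1 palindrome each, which ends 72 and 99 bases before the start site given by RefSeq; the Bmpr2 window lies inside the gene as GENCODE draws it and is not shown. The other 5 windows, of Eng, Bmp4, Bmp6, Smad6 and Id3, do not hold these letters. Such a match describes the sequence and shows no binding.

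The total count was between 13715837 and 14359990 in the Pd1fl/fl libraries and between 14157027 and 24147311 in the Pd1cKO-Tie2 libraries. Levels are CPM, counts divided by the library total after scaling by edgeR's TMM method, and a count of 0 allows up to 3 counts, or between 0.125 and 0.219 CPM, an allowance for counting error only. Pdcd1, the deleted gene, held 32 counts in Pd1fl/fl replicate 1 and 0 in each Pd1cKO-Tie2 library. For Pd1fl/fl replicate 2 a count under 5 would have been omitted from the deposited counts and set to 0. Pdcd1 therefore does not set that library apart from the Pd1cKO-Tie2 libraries. Pd1fl/fl replicate 1 stood apart in neutrophil genes: the summed level of 10 neutrophil markers was 912 CPM there and between 1.32 and 55.4 CPM in the others. In support of the endothelial label, all 12 endothelial markers were counted in every library, led by the tight junction gene Cldn5 with 4764 to 6993 CPM. Of pericyte and smooth muscle markers, Rgs5 was also abundant, and the smooth muscle genes were scarce: Acta2 held 0, 11, 0 and 0 counts, Tagln 5, 2, 3 and 10, and Myh11 0, 6, 40 and 16 in Pd1fl/fl replicates 1 and 2 and Pd1cKO-Tie2 replicates 1 and 2.

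Of the 10 genes, 9 passed edgeR's filter on low counts. Changed genes were those with at least a 2-fold change and a p of 0.05 or less, the limits in the study's methods. The p used here was the unadjusted p of edgeR's quasi-likelihood test, which the study's methods do not name. This criterion called 640 of 15909 tested genes, or 4.02%. It called 224 genes (1.41%) higher and 416 genes (2.61%) lower in Pd1cKO-Tie2. By this criterion Grem1 was the 1 member called, as higher, and it passed the filter through the Pd1cKO-Tie2 libraries alone, so the count of members is no result about the group. At an adjusted p under 0.05, edgeR's quasi-likelihood test called 0 of all genes and its likelihood ratio test 82, Grem1 among them (adjusted p = 0.0108). The quasi-likelihood test called 1016 (6.39%) at an unadjusted p of 0.05 or less, and DESeq2 called 114 of 16976 (0.672%) at an adjusted p under 0.05. By the 2-fold and p criterion DESeq2 called 936 of 21578 genes (4.34%), and Grem1 was among its calls in both counts. The genotypes did not overlap in 35.8% of tested genes, with Pd1cKO-Tie2 above in 17.7% and below in 18.1%. Of the 9 tested members, Grem1, Acvrl1, Eng and Bmpr2 were above, Bmp4 was below and 4 overlapped.

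**Figure D1:**
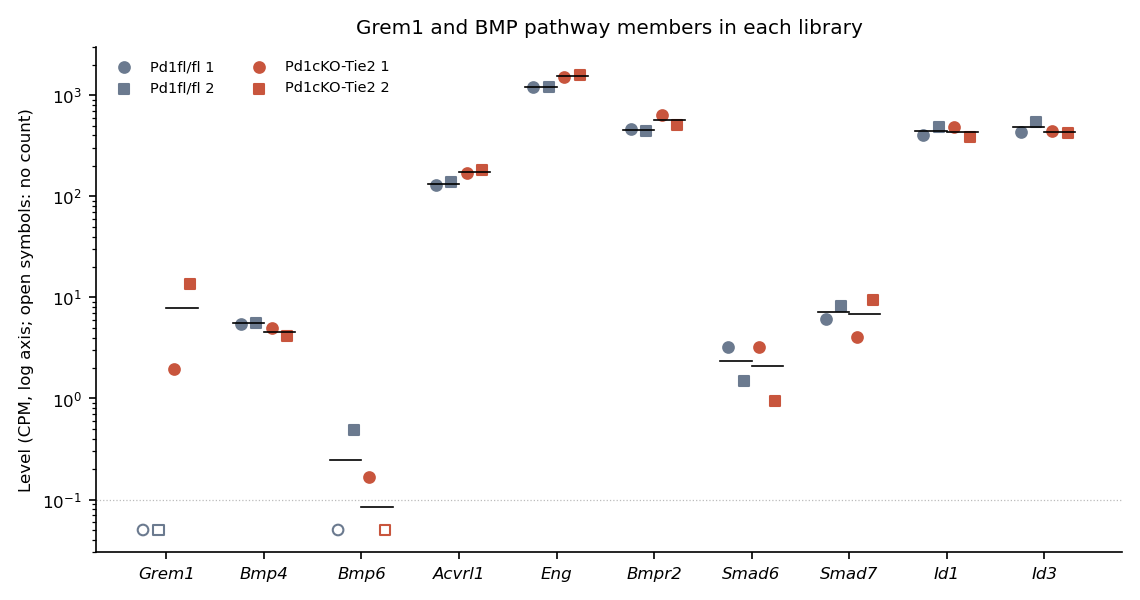
Level of each of the 10 genes in each library, in TMM-scaled CPM on a log axis; points are libraries, horizontal lines are genotype means where above 0, and open symbols drawn under the dotted line are libraries with a count of 0. Grem1 has no count in either Pd1fl/fl library, Acvrl1, Eng and Bmpr2 lie slightly higher in both Pd1cKO-Tie2 libraries, and Id1 and Id3 overlap.

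Grem1, the antagonist, was counted in both Pd1cKO-Tie2 libraries and in neither Pd1fl/fl library. Both Pd1fl/fl libraries held 0 counts, and the Pd1cKO-Tie2 libraries held 47 and 186, or 1.96 and 13.6 CPM (mean 7.78 ± 8.22, SD, n = 2). Both Pd1cKO-Tie2 libraries thus lay above the limit of a count of 0, and they differed 6.93-fold from each other although the library with fewer Grem1 counts was the deepest. Against that limit, taken per library and averaged over Pd1fl/fl, the Pd1cKO-Tie2 mean was 37.2-fold higher. On the same basis replicate 1 was 9.38-fold higher and replicate 2 was 65.0-fold higher. These ratios allow for counting error only, not for the spread between libraries. The interval of the fold in edgeR ran from 22.4 to 47318, so its lower end lay below 37.2. edgeR's quasi-likelihood test gave an unadjusted p of 0.00593, which ranked 84 of all tested genes, and an adjusted p of 0.735. The study took up Grem1 as one of the most changed genes of its sequencing data. The p-values of Grem1 here are therefore not those of a gene chosen beforehand. Without Pd1cKO-Tie2 replicate 2 the unadjusted p was 0.135, and with limma-voom on all 4 libraries it was 0.150, so that the call was lost in both. The adjusted p was 0.00287 with DESeq2, and it ranged from 0.00287 to 0.934 over the alternatives tried.

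Grem1 remained a low transcript where it was counted. Per kilobase of exon its level in the Pd1cKO-Tie2 libraries was 0.473 and 3.28 CPM, against 2.19 and 1.85 CPM for the ligand Bmp4 in the same libraries. Grem1 was therefore below Bmp4 in the first library and above it in the second. Of the 4047 distinct stretches of 50 bases in Grem1 transcripts, 1.51% also occur in transcripts of other genes, so up to that share of its sequence could take reads from elsewhere.

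The pattern of Grem1, no count in Pd1fl/fl and a count in both Pd1cKO-Tie2 libraries, was seen in 195 genes, Grem1 included, of which 102 passed the filter. The reverse pattern was found in 222 genes, of which 145 passed. Among the genes closest to Grem1, by Euclidean distance of log2 CPM over the 4 libraries, were Pla2r1 (0.95), Slc5a9 (1.78), Dct (1.97) and Bpifb1 (1.99). Pla2r1, a phospholipase A2 receptor gene also on chromosome 2, held 0, 0, 52 and 96 counts in Pd1fl/fl replicates 1 and 2 and Pd1cKO-Tie2 replicates 1 and 2. Slc5a9, a sodium and sugar transporter gene, held 0, 0, 115 and 76. Every one of these 4 genes had no count in Pd1fl/fl, a likeness fixed by the measure itself.

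The genes around Grem1 did not share its pattern. Within 250 kb of its body, 4 further genes appeared in the deposited counts, and all 4 were counted in every library. Fmn1, the formin gene on the opposite strand 29397 bases away, held 35, 104, 71 and 47 counts, and its log2 fold change was -0.60 (95% interval -2.92 to 1.71). Scg5, a neuroendocrine chaperone gene 17716 bases away, held 971, 1558, 2596 and 1208 counts, with a log2 fold change of 0.16 (-0.57 to 0.88). Arhgap11a held 391, 224, 502 and 413 counts (0.26, -0.76 to 1.27), and the processed pseudogene Gm21596 held 18, 31, 29 and 23. None of the 4 met the criterion, and the genotypes overlapped in each.

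The ligands were scarce. Bmp4, a ligand with known roles in vessel and forebrain development, held 79 and 80 counts in the Pd1fl/fl libraries against 118 and 57 in the Pd1cKO-Tie2 libraries, which is 5.47 and 5.62 CPM against 4.93 and 4.17 CPM. Both Pd1cKO-Tie2 libraries were below both Pd1fl/fl libraries in level, by little: the log2 fold change was -0.29 with a standard error of 0.71 (unadjusted p = 0.703, adjusted p = 1.00 in edgeR). Its exons share 89 bases with Gm15217 on the opposite strand, and the use of strand in counting is not given in the sources used here. Bmp6, which endothelial cells of several organs are known to make, held 0 and 7 counts in the Pd1fl/fl libraries, against 4 and 0 in the Pd1cKO-Tie2 libraries. It did not pass the filter. With no filter beyond 1 count its log2 fold change was -1.42 (unadjusted p = 0.737 in edgeR), and no difference was detectable with these counts.

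Of the 13 ligand genes on the list of the pathway, 8 appeared in the deposited counts and 6 were tested. Bmp2, next to Bmp4 in level per kilobase, held 111, 94, 229 and 69 counts (log2 fold change 0.03, SE 0.63). Bmp3, whose product is known to act against other BMPs, was the 1 ligand called. It held 39 and 19 counts in the Pd1fl/fl libraries and none in either Pd1cKO-Tie2 library. Against the limit of a count of 0 its level was 11.7-fold lower, a ratio that allows for counting error only. In edgeR Bmp3 had a log2 fold change of -8.07 (interval -13.8 to -2.29, unadjusted p = 0.0162, adjusted p = 0.735). It was not called when any 1 of the 4 libraries was left out, nor by limma-voom. Bmp10 and Gdf2, which encode the high-affinity ligands of ALK1, were not listed in the tables used here.

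The receptor genes of the endothelial branch, Eng, Acvrl1 and Bmpr2, were abundant, and none met the criterion. Each had a higher level in both Pd1cKO-Tie2 libraries. In edgeR's quasi-likelihood test Eng alone had an unadjusted p of 0.05 or less. For Bmpr2 the unadjusted p was 0.0428 with DESeq2, 0.0436 with limma-voom and 0.116 with the likelihood ratio test. For Acvrl1 it was 0.0590, 0.0542 and 0.0766 in that order, and 0.0466 with DESeq2 on the filtered genes. Eng, the endoglin gene, was at 1205 and 1194 CPM in Pd1fl/fl and at 1501 and 1576 CPM in Pd1cKO-Tie2. The groups did not overlap, and the spread within each was small beside the gap between them. The mean was 1200 ± 7.83 CPM over the Pd1fl/fl libraries and 1538 ± 53.0 CPM over the Pd1cKO-Tie2 libraries (SD, n = 2 each), a fold of 1.28 (95% interval 1.07 to 1.53), with an unadjusted p of 0.0147 and an adjusted p of 0.735 in edgeR. This change missed the 2-fold criterion, and without Pd1cKO-Tie2 replicate 2 the unadjusted p was 0.0664.

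Acvrl1, which encodes ALK1, was at 129 and 139 CPM in Pd1fl/fl and at 169 and 182 CPM in Pd1cKO-Tie2, again without overlap. Its fold was 1.31 (95% interval 0.99 to 1.74, unadjusted p = 0.0561, adjusted p = 0.807 in edgeR). Bmpr2, the type II receptor, was at 459 and 445 CPM in Pd1fl/fl and at 638 and 506 CPM in Pd1cKO-Tie2. Both Pd1cKO-Tie2 libraries were higher, but they differed from each other by as much as the genotypes did (fold 1.26, 95% interval 0.96 to 1.66, unadjusted p = 0.0787, adjusted p = 0.859 in edgeR). Exons of Acvrl1 share 127 bases with Gm16031, and those of Eng share 61 bases with Fpgs, both on the opposite strand.

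Over the 11 receptor and co-receptor genes of the pathway list, all tested, 0 met the criterion and 9 had a positive log2 fold change. The median was 0.36, beside -0.0038 over all tested genes, and 6 lay higher in both Pd1cKO-Tie2 libraries. Over all tested genes, 49.6% were positive and 17.7% lay higher in both. With a library left out, the receptor median ranged from 0.24 (without Pd1fl/fl replicate 1, 6 of 11 positive) to 0.43 (without Pd1cKO-Tie2 replicate 2). Bambi, a pseudoreceptor that dampens the pathway, was second to Eng in level per kilobase, with 227 and 234 CPM in Pd1fl/fl and 325 and 305 CPM in Pd1cKO-Tie2 (log2 fold change 0.45, SE 0.14, unadjusted p = 0.0203, adjusted p = 0.735 in edgeR). Eng and Bambi were the 2 receptor-group genes with an unadjusted p of 0.05 or less in edgeR's quasi-likelihood test.

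**Figure D2:**
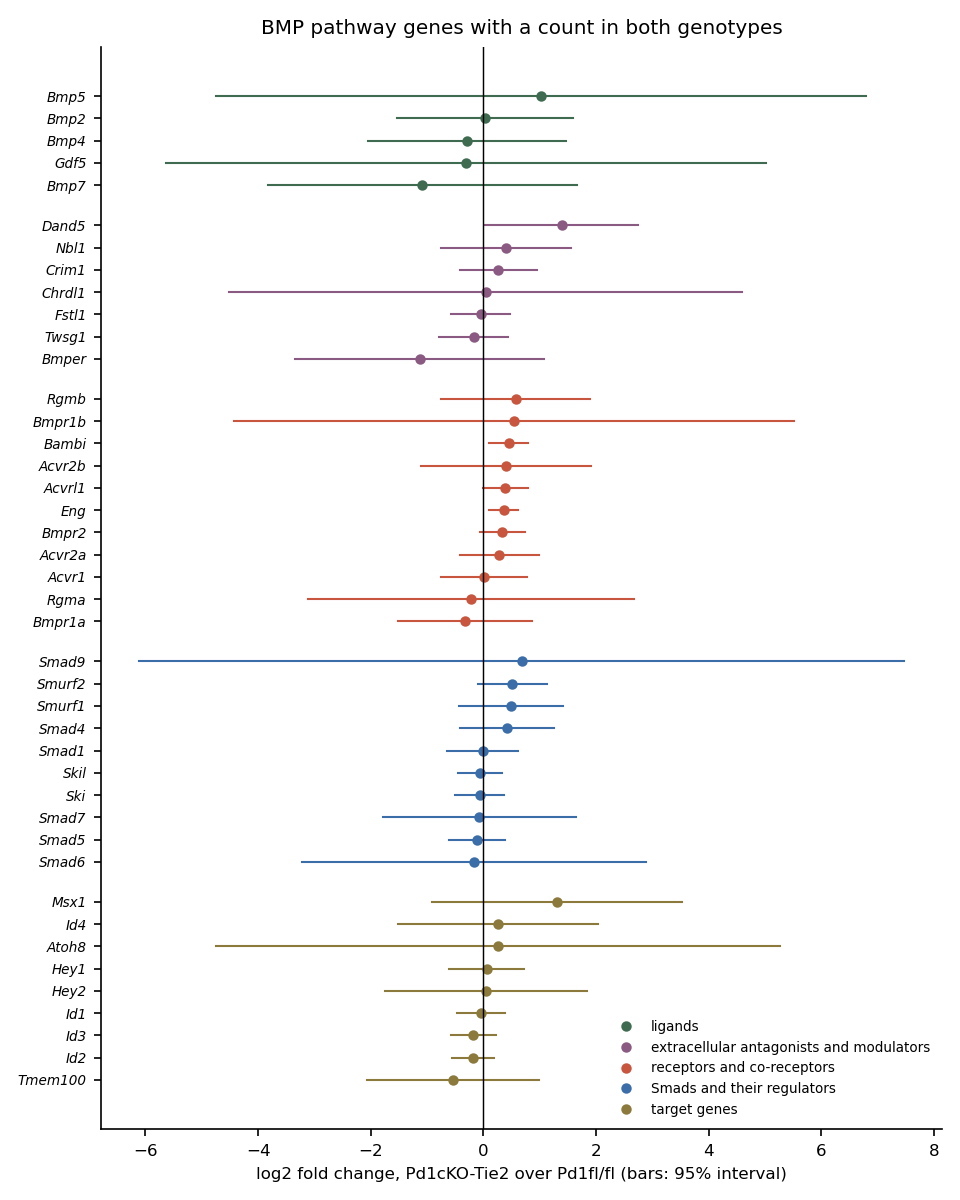
Log2 fold change of Pd1cKO-Tie2 over Pd1fl/fl from edgeR for the pathway genes that were tested and held a count in both genotypes, by role; points are estimates, bars are 95% intervals and the vertical line is no difference. The receptors lie mostly right of 0 with a median of 0.36, Dand5 lies at 1.39, and the abundant Id1, Id2 and Id3 lie just left of 0 with intervals that include it; Grem1 and Bmp3, with no count in one genotype, are not drawn.

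The endothelial markers lay higher along with these receptors. Of the 12 endothelial markers, 11 lay higher in both Pd1cKO-Tie2 libraries, beside 17.7% of all tested genes. Of these markers 0 met the criterion, and the median log2 fold change was 0.32. Their summed level was 10538 and 9555 CPM in Pd1fl/fl and 12418 and 13271 CPM in Pd1cKO-Tie2. The junction genes Cdh5 and Cldn5 had log2 fold changes of 0.47 (SE 0.17) and 0.40 (SE 0.10), and Pecam1, which encodes the sorting antigen CD31, 0.29 (SE 0.18). The transporter gene Slco1a4 was the exception, at -0.55 (SE 0.37). In sorted bulk cells, a larger share of endothelial cells and more RNA of a gene per cell cannot be told apart.

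When the libraries were scaled to the geometric mean of the 12 endothelial markers, an alternative chosen after the data were seen, the receptor differences shrank. The log2 fold change was 0.06 for Eng (95% interval -0.23 to 0.35), 0.09 for Acvrl1 (-0.39 to 0.56) and 0.05 for Bmpr2 (-0.44 to 0.54), and the genotypes overlapped in all 3. The scaling moved the median of all tested genes to -0.30. The ratio of Eng to Cdh5 per kilobase was 6.72 and 8.17 in the Pd1fl/fl libraries against 6.52 and 7.16 in Pd1cKO-Tie2, and that of Acvrl1 to Cdh5 was 0.683 and 0.900 against 0.697 and 0.784. Relative to endothelial markers, Eng and Acvrl1 thus overlapped between the genotypes.

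**Figure D3:**
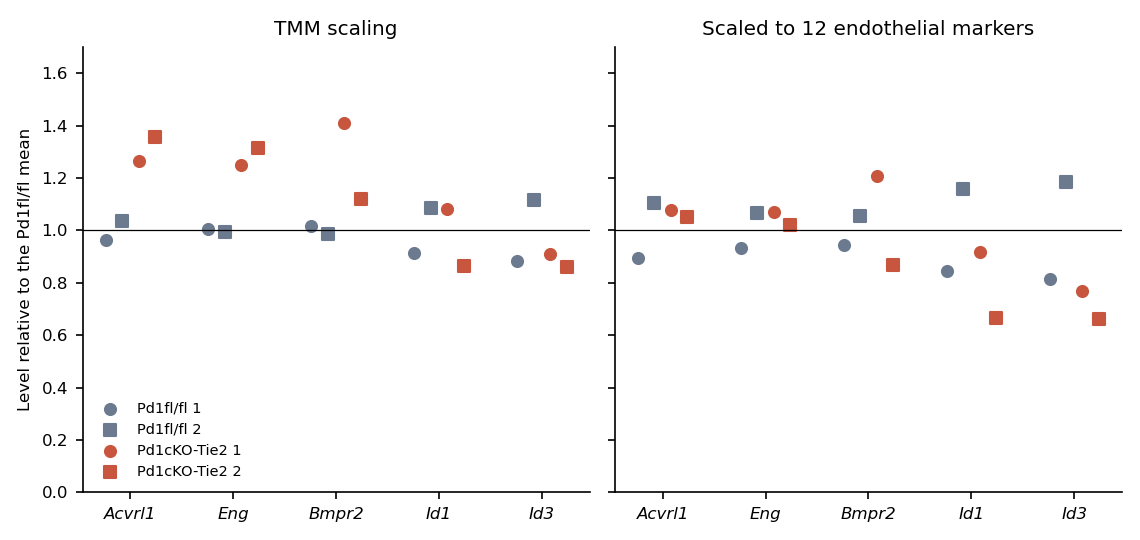
Level of the receptors Acvrl1, Eng and Bmpr2 and the targets Id1 and Id3 in each library, relative to the Pd1fl/fl mean of that gene (horizontal line at 1), with TMM scaling on the left and scaling to 12 endothelial markers on the right; points are libraries. The receptors lie above the line in both Pd1cKO-Tie2 libraries on the left and overlap with Pd1fl/fl on the right, where Id3 is lower in both Pd1cKO-Tie2 libraries.

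Markers of other cell types differed between the libraries as well. All 10 microglial and macrophage markers had a negative log2 fold change (median -0.92), 7 of them with both Pd1cKO-Tie2 libraries lower and 2 of them called, and their summed level was 1995 and 2418 CPM in Pd1fl/fl and 743 and 1701 CPM in Pd1cKO-Tie2. Of the 10 astroglial and radial glial markers, 5 were lower in both Pd1cKO-Tie2 libraries and 2 were called as lower (median log2 fold change -0.76). Positive were Nes (0.65, higher in both Pd1cKO-Tie2 libraries), Sox2 (0.22) and Vim (0.18). Beside the counts of these microglial and glial lists, 18.1% of all tested genes were lower in both Pd1cKO-Tie2 libraries and 2.61% were called lower. The summed level of the pericyte and smooth muscle list was 3587 to 5563 CPM in Pd1fl/fl and 3677 to 3685 CPM in Pd1cKO-Tie2, with 0 called. Most of this sum was Rgs5, at 4905 and 3213 CPM in Pd1fl/fl and 3252 and 3272 CPM in Pd1cKO-Tie2. Of the 8 tested markers of this list, 7 had a negative log2 fold change (median -0.34). In both Pd1cKO-Tie2 libraries 2 of the 8 were lower and 1 was higher. The summed level of 10 fibroblast markers was 143.8 and 59.96 CPM in Pd1fl/fl and 100.2 and 106.9 CPM in Pd1cKO-Tie2, with 5 tested and 0 called. Of the collagen genes among them, Col1a1 held 152, 0, 0 and 0 counts in Pd1fl/fl replicates 1 and 2 and Pd1cKO-Tie2 replicates 1 and 2, Col1a2 held 659, 341, 317 and 514, and Col3a1 held 621, 179, 1362 and 560. The part of these other cells in the differences of the BMP genes was not tested.

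**Figure D4:**
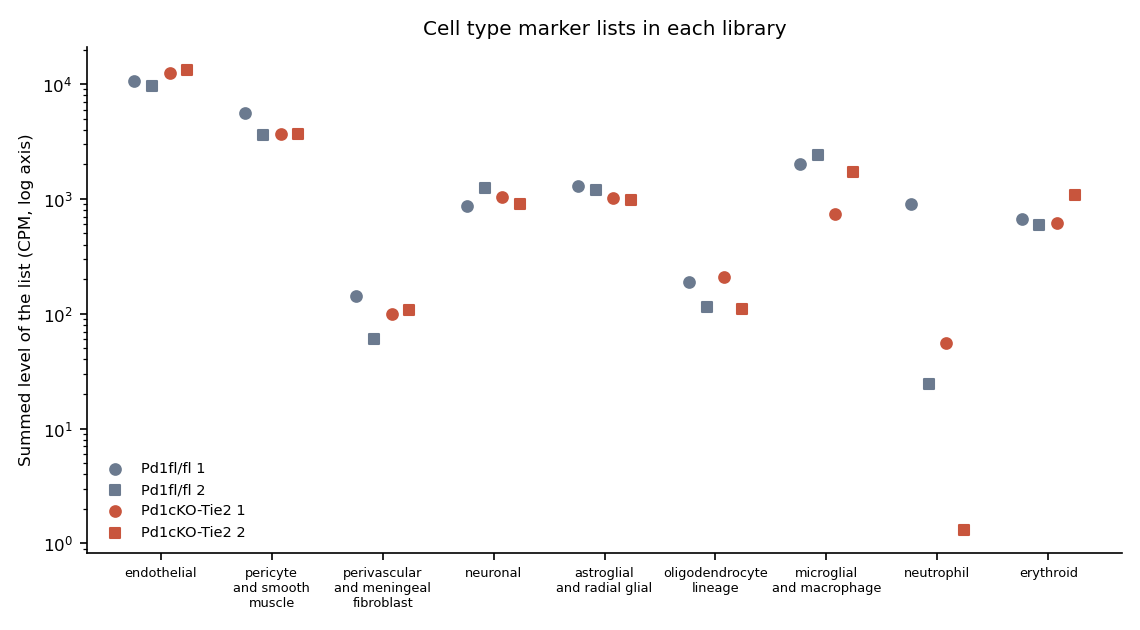
Summed level of each cell type marker list in each library, in TMM-scaled CPM on a log axis; points are libraries. The endothelial sum is highest in both Pd1cKO-Tie2 libraries, the microglial sum is lowest in them, and the neutrophil sum is 912 CPM in Pd1fl/fl replicate 1 against at most 55.4 CPM elsewhere.

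The inhibitory Smads, which are targets of the pathway and also its feedback brakes, were low and did not separate the genotypes. Smad6 held 47 and 21 counts in the Pd1fl/fl libraries against 78 and 13 in the Pd1cKO-Tie2 libraries, or 3.25 and 1.48 CPM against 3.26 and 0.950 CPM. Its log2 fold change was -0.16 with a standard error of 1.23. Smad7 held 88 and 116 counts in the Pd1fl/fl libraries against 98 and 130 in the Pd1cKO-Tie2 libraries, or 6.09 and 8.15 CPM against 4.09 and 9.50 CPM, and its log2 fold change was -0.07 (SE 0.69). The Pd1cKO-Tie2 values of Smad7 lay on either side of those of Pd1fl/fl. For both, the intervals (-3.22 to 2.89 and -1.78 to 1.64 on the log2 scale) include a 2-fold change in either direction. A change of this size was therefore not detectable with these libraries.

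All 10 Smads and Smad regulators of the pathway list were tested and 0 met the criterion (median log2 fold change -0.03). Skil, a Smad corepressor, and Smad5, the signal-carrying Smad, had the highest levels per kilobase in this role. Skil was at 383 and 370 CPM in Pd1fl/fl and at 326 and 398 CPM in Pd1cKO-Tie2 (log2 fold change -0.06, SE 0.16). Smad5 was at 257 and 275 CPM against 287 and 205 CPM (-0.11, SE 0.20), and the genotypes overlapped in both genes.

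The targets Id1 and Id3, which encode inhibitors of basic helix-loop-helix factors, were among the most abundant genes of the pathway and overlapped between the genotypes. Id1 was at 409 and 486 CPM in Pd1fl/fl and at 484 and 387 CPM in Pd1cKO-Tie2. Its fold was 0.97 (95% interval 0.72 to 1.31, unadjusted p = 0.830, adjusted p = 1.00 in edgeR). Id3 was at 432 and 545 CPM in Pd1fl/fl and at 444 and 421 CPM in Pd1cKO-Tie2. Its fold was 0.88 (95% interval 0.67 to 1.17, unadjusted p = 0.318, adjusted p = 1.00 in edgeR). Under TMM scaling, these intervals exclude a 2-fold change of either gene in either direction.

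With the scaling to endothelial markers, Id1 had a log2 fold change of -0.34 (95% interval -0.92 to 0.25) and Id3 of -0.48 (-1.02 to 0.06, unadjusted p = 0.0718 in edgeR), where the median of all tested genes was -0.30. The Id3 interval on that scale includes a 2-fold decrease. On that scale both Pd1cKO-Tie2 libraries lay below both Pd1fl/fl libraries for Id3, and the genotypes overlapped for Id1. The ratio of Id3 to Eng per kilobase was 0.810 and 1.03 in the Pd1fl/fl libraries against 0.668 and 0.603 in Pd1cKO-Tie2. That of Id1 to Eng was 1.18 and 1.42 against 1.12 and 0.857. Both ratios were lower in both Pd1cKO-Tie2 libraries, a description of 4 libraries that was not tested. The ratio of Id1 to Id3 was 1.46 and 1.38 in the Pd1fl/fl libraries against 1.68 and 1.42 in Pd1cKO-Tie2, which overlap.

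Of the 10 target genes of the pathway list, 9 were tested and 0 met the criterion. The median log2 fold change was 0.05, with 5 positive and 4 negative, and 7 of the 9 overlapped between the genotypes. This balance depended on single libraries and on scaling. With a library left out, the median ranged from -0.24 (without Pd1fl/fl replicate 1) to 0.12 (without Pd1cKO-Tie2 replicate 2). With scaling to endothelial markers it was -0.26, with 1 of the 9 target genes positive. The exceptions were Msx1, higher in both Pd1cKO-Tie2 libraries, and Id2, lower in both. Over all tested genes, 35.8% did not overlap. Id2 was at 326 and 369 CPM in Pd1fl/fl and at 291 and 320 CPM in Pd1cKO-Tie2 (log2 fold change -0.19, SE 0.15). With scaling to endothelial markers, Id2 had -0.49 (interval -0.94 to -0.04, unadjusted p = 0.0372, adjusted p = 0.557 in edgeR). The median of all tested genes on that scale was -0.30.

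Among the 17 extracellular antagonists and modulators, 13 appeared in the deposited counts and 8 were tested. Grem1 and Dand5 met the criterion, both as higher, beside 1.41% of all tested genes called higher. Since Grem1 passed the filter only through the genotype where it was counted, nothing is read from this count. Dand5, which encodes a secreted antagonist of the same family as Grem1, held 83 and 54 counts in the Pd1fl/fl libraries against 317 and 161 in the Pd1cKO-Tie2 libraries, or 5.75 and 3.80 CPM against 13.2 and 11.8 CPM. The groups did not overlap, and the log2 fold change was 1.39 (SE 0.55, unadjusted p = 0.0471, adjusted p = 0.762 in edgeR). The call of Dand5 was lost under library size scaling, DESeq2 and scaling to endothelial markers, with no filter beyond 1 count, and when any 1 of the 4 libraries was left out. Fstl1, a follistatin-like glycoprotein gene, and Twsg1, which encodes a BMP-binding protein, had the highest levels per kilobase in this role and overlapped between the genotypes. Fstl1 was at 199 and 161 CPM against 151 and 198 CPM (log2 fold change -0.05, SE 0.21), and Twsg1 at 68.0 and 74.3 CPM against 53.9 and 72.8 CPM (-0.17, SE 0.25). Noggin (Nog), a further BMP antagonist, was not listed in the tables used here.

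Over the whole pathway list of 61 genes, 51 appeared in the deposited counts and 44 were tested. Of these, 3 met the criterion, beside 4.02% of all tested genes: Grem1, Dand5 and Bmp3. Grem1 and Bmp3 had no count in one of the genotypes and passed the filter through the other alone, so this count is no result about the pathway. Among the 10 genes, the order of level per kilobase over all libraries was Id1 (381 CPM), Eng (338 CPM), Id3 (257 CPM), Acvrl1 (36.3 CPM), Bmpr2 (28.5 CPM), Bmp4 (2.24 CPM), Smad7 (1.54 CPM), Grem1 (0.938 CPM), Smad6 (0.697 CPM) and Bmp6 (0.0422 CPM). Several neighbours in this order changed places between libraries. Id1 exceeded Eng in 3 of the 4 libraries and was below it in Pd1cKO-Tie2 replicate 2. Id3 exceeded Eng in Pd1fl/fl replicate 2 alone, and Acvrl1 exceeded Bmpr2 in all 4. The abundant 5 genes and the scarce 5 genes did not overlap in any library.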

How the data were processed

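RNA of sorted brain endothelial cells was sequenced in 4 libraries, 2 per genotype, and genotypes were taken from the sample labels. Replicates are numbered as the columns are; the second Pd1cKO-Tie2 sample is labelled 3, not 2, so that column was tied to its genotype only. The authors deposited 4 tables of whole-number read counts per gene, without normalization, each for 1 Pd1cKO-Tie2 and 1 Pd1fl/fl library. The deposited CPM columns served only to recover library totals. The deposited fold changes and p-values of the authors' pairwise comparisons, with their ratio or log2 scale, were not used. The submitters' processing notes name Bowtie2 2.2.3, TopHat2 2.0.12, HTSeq 0.6.0 and the build mm9, whereas gene positions follow GRCm38 (identical to GENCODE M21 for 90.0% of genes). The use of strand is not given in the sources used here.

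The tables were joined by gene identifier. Broken lines, 5 in each of 2 files, were dropped, and 23 date-like symbols were restored. Each file omits genes unless both of its libraries have counts or either has at least 5, and omitted genes were set to 0. Counts were tested in R 4.3.3 with edgeR 4.0.16 (quasi-likelihood F test), filterByExpr by genotype, TMM scaling and no covariate, with Benjamini-Hochberg adjustment over all tested genes. Intervals are 95% intervals. Log2 CPM used a prior count of 2. Alternatives were DESeq2 1.42.0, limma-voom (limma 3.58.1), edgeR's likelihood ratio test, other scalings and filters, and leaving out each library. The edgeR fit was checked on simulated data with known changes. The members and gene lists were chosen with earlier results of these data known. Named are the 10 members, the pathway genes past the criterion, the 2 highest per kilobase in each role, the genes within 250 kb of Grem1 and the 5 closest to it in pattern, of which 1 is not reported here; other genes were named after their values were seen. Level per kilobase is the CPM divided by the exon length of GENCODE M21.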

Additional observations from a re-analysis of the deposited data

How the results depend on the processing

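No paired analysis was possible because the labels of the genotypes share fewer than 2 replicate numbers. The number of genes past the criterion stayed within 1.5 times the value of 640 under every alternative (480 to 936), and without a library it was 691 to 871. With scaling to endothelial markers, 145 genes were higher and 731 lower, against 224 and 416. Grem1 kept a positive log2 fold change wherever it was tested, and its value without a library ranged from 8.11 to 10.6. With limma-voom (6.88) it missed the criterion on the unadjusted p of 0.150, not on the fold. Since Grem1 had no count in Pd1fl/fl, the size of these values rests on how each tool treats a count of 0. With at least 10 counts in every library Grem1 could not be tested, so 0 members and 1 pathway gene (Dand5) were called. limma-voom also called 0 members and 1 pathway gene (Dand5). Without a library, 0 to 1 members and 0 to 5 pathway genes were called, with 0 of both without Pd1cKO-Tie2 replicate 2, 5 pathway genes without Pd1fl/fl replicate 2 and 1 without Pd1cKO-Tie2 replicate 1. The median log2 fold change of the tested members was -0.04, between 0.16 and 0.34 without a library and -0.34 with scaling to endothelial markers. Of 112 values of the other members, 105 kept direction and side of the criterion and 7 reversed, all with a library left out: Smad6 to 0.52 without Pd1fl/fl replicate 1 and 0.46 without Pd1cKO-Tie2 replicate 2, Smad7 to 0.16 without Pd1fl/fl replicate 2 and 0.43 without Pd1cKO-Tie2 replicate 1, Id1 to 0.09 and 0.12 without Pd1fl/fl replicate 2 and Pd1cKO-Tie2 replicate 2, and Id3 to 0.0028 without Pd1fl/fl replicate 2. With a library left out, Smad6 ranged from -1.30 to 0.52, Smad7 from -0.79 to 0.43, Id1 from -0.20 to 0.12 and Id3 from -0.33 to 0.0028. The cause was not tested. Grem1, Bmp4, Bmp6, Smad6 and Smad7 held at most 186 counts in a library. Whether depth or the spread between libraries limits them was not tested.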

Other observations

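Several scarce antagonists, named here after their values were seen, were counted in a single library. Chrd, the chordin gene, held 37 counts in Pd1fl/fl replicate 2 alone, Cer1 held 21 and Sostdc1 held 5 in Pd1cKO-Tie2 replicate 2 alone. In each, a count under 5 in the other library of the same genotype would have been omitted and set to 0. None of these passed the filter on low counts. Chrdl1, which encodes a chordin-like BMP antagonist, held 219 and 0 counts in the Pd1fl/fl libraries and 261 and 64 in Pd1cKO-Tie2, so its Pd1fl/fl libraries differed more from each other than the genotype means did.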
